A study of Mus musculus with 27 samples.

Results

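The genes described here are 42 members of the Wnt signaling pathway, taken from 19938 genes measured on microarrays of 2 kinds of mouse cells, embryonic fibroblasts (MEFs) and fibroblasts of the adult heart (CFs), during conversion toward induced cardiomyocyte-like cells. They were chosen by name: all genes with a Wnt or Frizzled (Fzd) symbol, the coreceptors Lrp5 and Lrp6, the receptors Lgr4, Lgr5 and Lgr6, the R-spondins Rspo1 to Rspo4, the ubiquitin ligases Rnf43 and Znrf3, and the responsive genes Axin2 and Lef1. This gave 19 Wnt ligands, 10 Frizzled receptors, 2 Lrp coreceptors, 4 R-spondins, 3 Lgr receptors, 2 receptor ubiquitin ligases, Axin2 and Lef1. Tcf7 also belongs to this set by its name and was not analysed here, because no probe set carried it as its single gene. All other members had 1 probe set, except Wnt4, which had 2 and was represented by the brighter.

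Each of 9 groups held 3 replicate cultures, 27 arrays in all, with RNA collected at Day 3. MEFs were prepared from embryos without heads and internal organs, and CFs from adult hearts. The HNGMT groups received lentiviruses for doxycycline-inducible Hand2, Nkx2.5, Gata4, Mef2C and Tbx5. They also received lentiviruses for the rtTA activator and for a calcium reporter driven by a Troponin T promoter. Doxycycline at 2 μg/mL from Day 0 was given to all groups, 0TF included. The 0TF groups of MEFs received none of the 5 factors. They are given as empty-vector cells in one label and as cells with no factor treatment in another, and the extraction protocol speaks of non-transduced cells, so in HNGMT versus 0TF the factors and the viral transduction cannot be told apart. Each cell and factor condition was cultured with DMSO (the vehicle), with SB431542 (SB, an inhibitor of the type I receptors for TGFβ, Activin and Nodal) or with TGFβ1 at 2 ng/mL, all from Day -1. SB was used at 0.5 μM in MEFs and at 5 μM in CFs, so the SB results of the 2 cell types are given side by side without a comparison. No 0TF group of CFs was analysed here. The groups are therefore MEF 0TF, MEF HNGMT and CF HNGMT, each with DMSO, SB or TGFβ1.

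Wnt proteins are secreted lipid-modified ligands that bind Frizzled receptors. In the branch that runs through β-catenin, the ligand joins a Frizzled to Lrp5 or Lrp6, β-catenin is spared from breakdown, and it acts in the nucleus with Tcf and Lef factors. Rnf43 and Znrf3 remove Frizzleds from the cell surface, and R-spondins bound to Lgr4, Lgr5 or Lgr6 hold these ligases back, so that more receptor stays in place. Axin2 is a scaffold of the breakdown complex that β-catenin itself induces, and it serves as negative feedback. Other Wnts, such as Wnt5a and Wnt11, act mainly through branches without β-catenin that steer cell polarity and movement. In the heart, Wnt signaling has stage-dependent roles in forming mesoderm and cardiomyocytes.

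Values are log2 array values, and a level can be compared between cultures for 1 gene but not between genes. The median of an array over all its probe sets was 7.83 to 7.91 in MEFs and 7.36 to 7.43 in CFs. Levels of the 2 cell types are therefore also given side by side only. A gene is called dim where its mean over the arrays of a cell type was under the 40th percentile of all genes. In MEFs 13 members were dim (Axin2, Lef1, Rnf43, Rspo4, Fzd10, Wnt1, Wnt3, Wnt6, Wnt7a, Wnt8a, Wnt8b, Wnt9b and Wnt10b), and in CFs 16, of which 11 were dim in both. The dim members of CFs included Rspo2, Lgr5, Wnt16, Wnt2b and Rspo1, which were not dim in MEFs. Hand2 was at 11.57 to 11.77 in the 9 MEF HNGMT arrays and at 8.77 to 9.30 in the 9 MEF 0TF arrays, and Gata4 was at 8.56 to 9.02 and 8.22 to 8.59. The 2 ranges of Gata4 overlapped. Nkx2-5, Mef2c and Tbx5 were not higher with HNGMT on this array of mouse probes. For the delivered factors, the paper lists a mouse PCR assay for Hand2 and human assays for NKX2.5, GATA4, MEF2C and TBX5. Whether the probe sets match the delivered coding sequences was not tested. Of the 12 fibroblast markers only Tcf21 was dim in all 6 MEF groups, and none of the 14 endothelial markers was dim in any of the 3 CF groups, where their mean value was 10.46 to 10.50 with DMSO.

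A member is called higher or lower in a comparison where its adjusted p was under 0.05 and its change at least 0.58 on the log2 scale in MEFs (1.5-fold) or at least 0.32 in CFs. In MEF 0TF, TGFβ1 raised 3 members and lowered 12 of 42, against 4.21% and 6.19% of all genes. SB raised 1 and lowered 5 in the same cells, against 1.26% and 1.13% of all genes. In MEF HNGMT, TGFβ1 raised 1 and lowered 6, against 2.23% and 3.54%. SB called none of the 42 in MEF HNGMT, against 0.391% of genes higher and 0.431% lower. Before adjustment, limma's p was under 0.05 for 13 of them there (4 up, 9 down), and after adjustment but with no fold limit for 5 (1 up, 4 down). Of all 19938 genes, 1759 were up and 1705 down before adjustment, and 665 up and 806 down after it. The SB and TGFβ1 comparisons of a cell type share their DMSO cultures.

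With HNGMT the members fell more often than they rose. Against 0TF, 1 member was higher and 9 were lower in DMSO, where 4.56% and 4.51% of all genes were called. In SB the counts were 2 higher and 8 lower, against 5.04% and 4.81%, and in TGFβ1 they were 2 higher and 7 lower, against 6.37% and 3.88%. In all, 20 members were called in at least 1 of the 12 comparisons, the differences between effects included, and 22 in none. Over the 9 comparisons of group pairs, the 22 others moved by between -0.54 and 0.57 on the log2 scale.

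**Figure D1:**
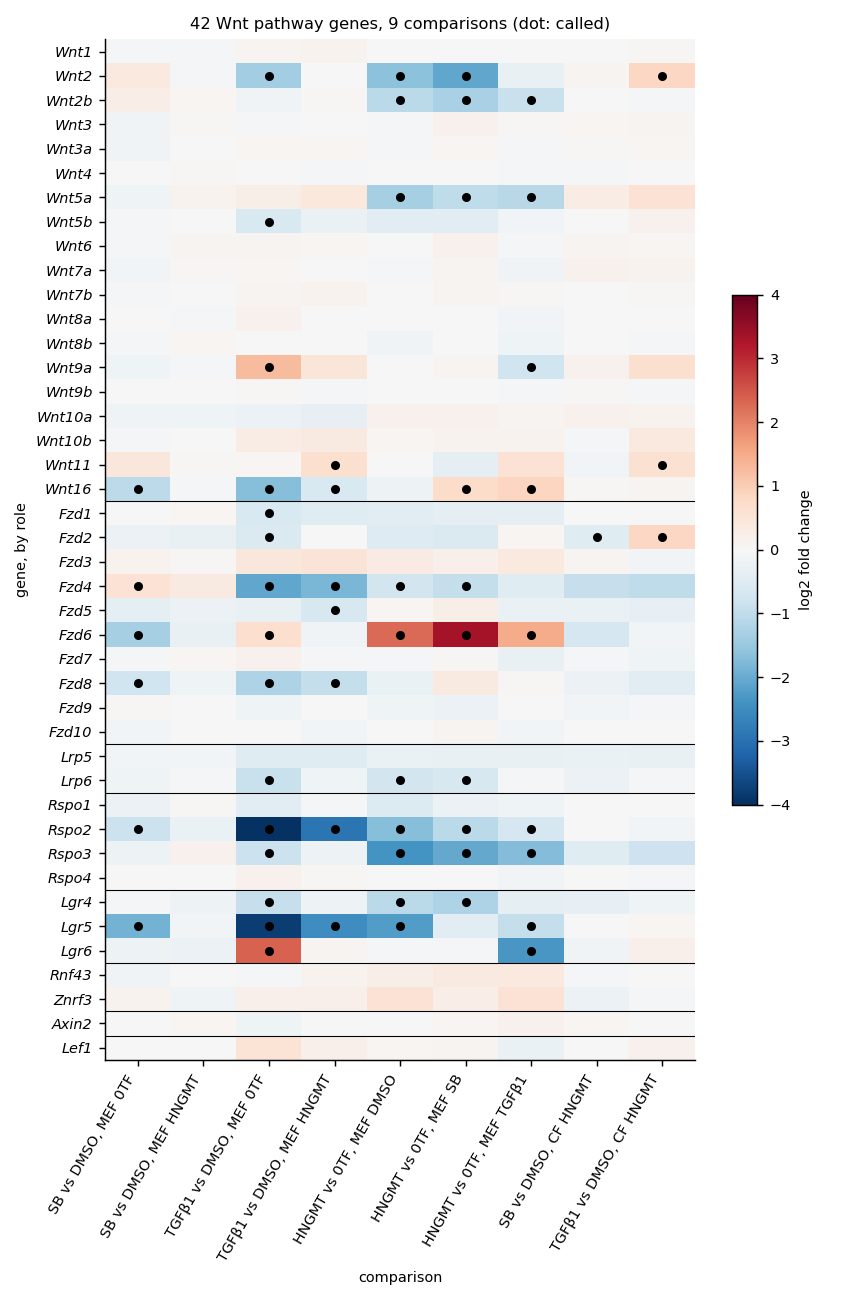
Log2 fold change (colour) of the 42 genes, ordered by role along the vertical axis, in 9 comparisons of 2 groups along the horizontal axis, n = 3 cultures a group. A black dot marks a called change. The deepest blue cells are Rspo2 at -3.96 and Lgr5 at -3.79 with TGFβ1 in MEF 0TF, and the deepest red cell is Fzd6 at 3.32 with HNGMT in SB.

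Among the Wnt ligands, Wnt2, which is expressed in the mesenchyme of developing heart and lung, fell with TGFβ1 in MEF 0TF and rose with it in CF HNGMT. Its values were 9.51, 9.34 and 9.39 in MEF 0TF with DMSO, 9.87, 9.82 and 9.72 with SB and 7.95, 8.06 and 8.11 with TGFβ1. All 3 TGFβ1 cultures lay below the DMSO cultures (log2 fold change -1.38, SE 0.0665, adjusted p = 9.12e-12), a 2.60-fold fall, while SB left Wnt2 below the fold limit at 0.39. With HNGMT the MEF values were 7.83, 7.72 and 7.75 in DMSO, 7.82, 7.65 and 7.67 in SB and 7.88, 7.71 and 7.66 in TGFβ1. These overlapped with each other and lay below all 0TF cultures of the same treatment in DMSO (log2 fold change -1.65, SE 0.0665, adjusted p = 9.53e-13) and in SB (log2 fold change -2.09). In CFs Wnt2 was at 6.95, 7.28 and 6.96 with DMSO, 7.18, 7.13 and 7.21 with SB and 7.98, 7.94 and 7.72 with TGFβ1. There the TGFβ1 cultures were the high ones (log2 fold change 0.82, SE 0.101, adjusted p = 0.00235), and the DMSO and SB cultures lay near the limit under which genes are called dim in CFs (7.27).

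Wnt16, a ligand known from bone, fell with both agents in MEF 0TF. Its values were 9.51, 9.47 and 9.49 with DMSO, 8.39, 8.51 and 8.47 with SB and 7.90, 7.62 and 7.87 with TGFβ1, with no overlap among the 3 groups. The fall was 2.05-fold with SB (log2 fold change -1.03, SE 0.0607, adjusted p = 7.48e-10) and 3.24-fold with TGFβ1 (log2 fold change -1.70, SE 0.0607, adjusted p = 1.59e-13). MEF HNGMT values were 9.24, 9.37 and 9.24 with DMSO, 9.25, 9.20 and 9.13 with SB and 8.68, 8.63 and 8.69 with TGFβ1. Only TGFβ1 moved it there (log2 fold change -0.61, SE 0.0607, adjusted p = 2.79e-07), and without MEF HNGMT DMSO replicate 2 the change was -0.57, short of the fold limit. HNGMT left Wnt16 below the fold limit in DMSO (-0.21), and the HNGMT cultures were higher in SB (log2 fold change 0.74) and in TGFβ1 (0.87). In CFs it was dim, at 6.94 to 7.25 with DMSO.

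Wnt5a, the main ligand of the branches without β-catenin, fell with HNGMT under every treatment. In 0TF it was at 11.19, 11.18 and 11.19 with DMSO, 11.07, 11.02 and 11.00 with SB and 11.41, 11.46 and 11.39 with TGFβ1. The HNGMT values were 9.85, 9.95 and 9.84 with DMSO, 10.04, 10.07 and 9.93 with SB and 10.32, 10.35 and 10.25 with TGFβ1. No HNGMT culture reached any 0TF culture. The differences were -1.31 in DMSO (SE 0.0428, adjusted p = 5.66e-14), -1.02 in SB and -1.11 in TGFβ1 on the log2 scale. The response to TGFβ1 itself stayed under the fold limit, at 0.23 in 0TF and 0.43 in HNGMT. In CFs Wnt5a was at 7.97, 7.65 and 7.92 with DMSO, 7.70, 7.71 and 9.05 with SB and 8.75, 8.22 and 8.26 with TGFβ1, where SB replicate 3 stood above the other 2.

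Wnt2b, a close relative of Wnt2, also fell with HNGMT. Its values in 0TF were 8.46, 8.25 and 8.54 with DMSO, 8.89, 8.65 and 8.56 with SB and 8.32, 8.28 and 8.27 with TGFβ1. In HNGMT they were 7.42, 7.19 and 7.41 with DMSO, 7.58, 7.33 and 7.34 with SB and 7.44, 7.23 and 7.50 with TGFβ1. The HNGMT cultures lay below all 0TF cultures, with log2 fold changes of -1.08 in DMSO (SE 0.0968, adjusted p = 4.76e-08), -1.28 in SB and -0.90 in TGFβ1. The HNGMT cultures all lay under the limit for dim genes in MEFs (7.75), and neither agent moved Wnt2b past the fold limit in any MEF group. In CFs it was dim, at 6.69 to 6.86 with DMSO, 6.68 to 6.87 with SB and 6.57 to 6.79 with TGFβ1.

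Wnt9a, known for its part in joint formation, was the ligand that rose most with TGFβ1 in MEF 0TF. In 0TF it was at 8.44, 8.47 and 8.52 with DMSO, 8.15, 8.34 and 8.42 with SB and 9.88, 9.82 and 9.53 with TGFβ1. The TGFβ1 cultures were all above the rest (log2 fold change 1.27, SE 0.0892, adjusted p = 1.55e-09), a 2.41-fold rise. HNGMT cultures were at 8.64, 8.41 and 8.37 with DMSO, 8.46, 8.36 and 8.40 with SB and 9.05, 8.96 and 8.82 with TGFβ1, a difference of 0.47 for TGFβ1 that did not reach the fold limit. The CF values were 8.31, 8.48 and 8.43 with DMSO, 8.50, 8.19 and 9.01 with SB and 8.95, 9.08 and 9.10 with TGFβ1 (log2 fold change 0.64 with TGFβ1, adjusted p = 0.0723).

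Wnt11, a ligand of the branches without β-catenin with a known part in heart development, rose with TGFβ1 in HNGMT cells of both types. It was at 8.08, 8.12 and 8.11 with DMSO and 8.73, 8.84 and 8.66 with TGFβ1 in MEF HNGMT (log2 fold change 0.64, SE 0.0475, adjusted p = 6.91e-09), and at 8.17, 8.22 and 8.21 and 8.79, 8.81 and 8.85 in CFs (log2 fold change 0.61, SE 0.0607, adjusted p = 0.000864). In MEF 0TF the difference with TGFβ1 was 0.09. The TGFβ1 effects with and without HNGMT in MEFs differed by 0.55, short of the fold limit, and were not called different. SB in MEF 0TF moved Wnt11 by 0.45, also short of the limit, with 8.47 to 8.58 against 7.99 to 8.14 in DMSO. Wnt5b, a paralog of Wnt5a, fell with TGFβ1 in MEF 0TF by 0.61 on the log2 scale, and this was -0.53 after each array was centred on its median and -0.56 without MEF 0TF TGFβ1 replicate 1, both short of the fold limit. The other 12 ligands (Wnt1, Wnt3, Wnt3a, Wnt4, Wnt6, Wnt7a, Wnt7b, Wnt8a, Wnt8b, Wnt9b, Wnt10a and Wnt10b) were not called in any comparison, and 8 of them were dim in MEFs.

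For 4 members that moved, the 250 bases before a transcription start listed in RefSeq's promoter table (mouse build GRCm38.p6) are given on the strand of the gene. The members are Wnt2 and Wnt11 of the ligands, Fzd4 of the receptors and Lgr6, the member that rose most with TGFβ1. For Wnt11, with several starts in that table, the first along the gene was taken. RefSeq's gene spans of Wnt2, Wnt11 and Lgr6 begin at other bases than these starts. Of the 42 members 28 had an entry; Rspo2, Lgr5 and Fzd6 had none. Capitals mark matches, on either strand, to CTTTGAA or CTTTGAT (the core letters bound by Tcf and Lef factors), to AGATAA or TGATAA (letters bound by Gata factors) or to CAGACA (letters bound by Smad factors).
Wnt11, chr7:98834862-98835111, plus strand: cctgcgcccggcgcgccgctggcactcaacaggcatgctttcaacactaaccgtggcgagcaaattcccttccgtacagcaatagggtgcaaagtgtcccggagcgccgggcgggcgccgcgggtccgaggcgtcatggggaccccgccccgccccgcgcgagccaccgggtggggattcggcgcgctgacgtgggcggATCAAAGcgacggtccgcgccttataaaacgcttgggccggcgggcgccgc
Wnt2, chr6:18030446-18030695, minus strand: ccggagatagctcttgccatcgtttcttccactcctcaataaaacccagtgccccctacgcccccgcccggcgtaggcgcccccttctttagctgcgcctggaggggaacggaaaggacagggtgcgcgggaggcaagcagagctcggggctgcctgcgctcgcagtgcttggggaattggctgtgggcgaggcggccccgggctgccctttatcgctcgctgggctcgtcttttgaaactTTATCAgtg
Fzd4, chr7:89404116-89404365, plus strand: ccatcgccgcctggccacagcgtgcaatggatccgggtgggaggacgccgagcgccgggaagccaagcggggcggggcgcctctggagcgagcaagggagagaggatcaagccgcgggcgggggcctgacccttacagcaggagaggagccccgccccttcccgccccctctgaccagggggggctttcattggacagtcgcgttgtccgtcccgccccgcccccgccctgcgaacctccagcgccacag
Lgr6, chr1:135105277-135105526, minus strand: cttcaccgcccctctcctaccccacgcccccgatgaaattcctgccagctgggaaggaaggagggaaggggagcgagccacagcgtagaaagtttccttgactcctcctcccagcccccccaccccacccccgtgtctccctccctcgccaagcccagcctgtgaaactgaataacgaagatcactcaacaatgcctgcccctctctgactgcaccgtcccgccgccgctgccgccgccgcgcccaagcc

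Wnt11 held 1 match, to the Tcf and Lef letters CTTTGAT on the opposite strand, 51 to 45 bases before the start. Wnt2 held 1 match, to the Gata letters TGATAA on the opposite strand, 9 to 4 bases before the start. Fzd4 and Lgr6 held none of these letters in this window. Over the 28 members with an entry, 2 (Wnt5b and Wnt11) held the Tcf and Lef letters, 4 (Fzd1, Lef1, Wnt2 and Wnt8b) the Gata letters and 2 (Lef1 and Wnt7a) the Smad letters, or 7.1%, 14.3% and 7.1%. Of all 27018 genes with an entry, 8.6%, 18.8% and 19.3% held them. A match is a run of letters and not a measured binding site.

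Among the Frizzled receptors, Fzd6, which is known for aligning cells and hairs in a tissue, showed the largest rise with HNGMT of the 42 members. In MEF 0TF it was at 9.40, 9.43 and 9.34 with DMSO, 7.98, 8.10 and 8.11 with SB and 10.06, 10.04 and 10.06 with TGFβ1. SB thus stood 2.51-fold below DMSO (log2 fold change -1.33, SE 0.0395, adjusted p = 8.8e-14) and TGFβ1 above it (log2 fold change 0.66, SE 0.0395, adjusted p = 1.66e-10), with no overlap. In MEF HNGMT it was at 11.61, 11.72 and 11.66 with DMSO, 11.39, 11.38 and 11.38 with SB and 11.50, 11.57 and 11.54 with TGFβ1, all above every 0TF culture. The rise with HNGMT was 4.84-fold in DMSO (log2 fold change 2.27, SE 0.0395, adjusted p = 1.86e-17), 10.0-fold in SB and 2.80-fold in TGFβ1. CF cultures were at 12.07, 12.01 and 12.10 with DMSO, 11.97, 11.94 and 10.25 with SB and 11.98, 11.95 and 11.97 with TGFβ1. SB replicate 3 was the low one, and the other 2 SB cultures lay just below the DMSO cultures.

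Fzd4, a receptor for Wnts and for Norrin with a known part in retinal vessels, fell with TGFβ1 in MEFs whether or not HNGMT was given. In 0TF it was at 11.63, 11.69 and 11.64 with DMSO, 12.25, 12.27 and 12.20 with SB and 9.42, 9.70 and 9.63 with TGFβ1. In HNGMT it was at 10.76, 11.04 and 10.96 with DMSO, 11.30, 11.31 and 11.26 with SB and 8.93, 9.27 and 9.09 with TGFβ1. In both cell conditions the SB cultures were the highest and the TGFβ1 cultures the lowest, with no overlap. TGFβ1 lowered Fzd4 4.21-fold in 0TF (log2 fold change -2.07, SE 0.0805, adjusted p = 4.76e-13) and 3.53-fold in HNGMT (log2 fold change -1.82, SE 0.0805, adjusted p = 8.91e-12). SB raised it in 0TF (log2 fold change 0.59, SE 0.0805, adjusted p = 3.12e-05), just past the fold limit, and its difference in HNGMT was 0.37. The rise with SB was 0.58, 0.58 and 0.57 without MEF 0TF DMSO replicate 1, DMSO replicate 3 and SB replicate 2, each short of the limit. HNGMT lowered it in DMSO (-0.74) and in SB (-0.95), and in TGFβ1 the difference was -0.49. In a fit of all 27 arrays, which takes in the divergent CF culture, the adjusted p was 0.475 for SB in 0TF, 0.159 for HNGMT in DMSO and 0.057 for HNGMT in SB. In CFs Fzd4 was at 11.24, 11.18 and 11.23 with DMSO, 11.13, 11.19 and 8.58 with SB and 10.23, 10.24 and 10.11 with TGFβ1.

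Fzd8 and Fzd5, which form a subfamily of the Frizzleds, fell with TGFβ1 to different extents. Fzd8 was at 11.60, 11.50 and 11.40 in MEF 0TF with DMSO, 10.68, 10.81 and 10.68 with SB and 10.20, 10.29 and 10.27 with TGFβ1. It fell 1.72-fold with SB (log2 fold change -0.78, SE 0.0508, adjusted p = 2.82e-09) and 2.38-fold with TGFβ1 (log2 fold change -1.25, SE 0.0508, adjusted p = 8.46e-13). With HNGMT it was at 11.28, 11.27 and 11.20 with DMSO, 11.13, 11.09 and 11.02 with SB and 10.29, 10.34 and 10.30 with TGFβ1, with a call for TGFβ1 only (log2 fold change -0.94, SE 0.0508, adjusted p = 1.12e-10). Fzd5 was at 9.51, 9.50 and 9.44 in 0TF with DMSO, 9.12, 9.10 and 9.08 with SB and 9.13, 9.15 and 9.24 with TGFβ1. The HNGMT values were 9.56, 9.61 and 9.52 with DMSO, 9.37, 9.34 and 9.30 with SB and 8.89, 8.88 and 8.96 with TGFβ1. The TGFβ1 cultures of HNGMT were the lowest (log2 fold change -0.65, SE 0.0394, adjusted p = 4.62e-10), and the 2 differences in 0TF (-0.39 with SB and -0.31 with TGFβ1) did not reach the fold limit. In CFs Fzd8 was at 9.91, 9.88 and 9.74 with DMSO, 9.78, 9.88 and 9.19 with SB and 9.40, 9.37 and 9.42 with TGFβ1. Fzd5 was at 9.12, 9.09 and 9.12 with DMSO, 8.97, 9.02 and 8.56 with SB and 8.73, 8.85 and 8.74 with TGFβ1, so that SB replicate 3 was the low SB culture for both.

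Fzd2, a receptor for Wnt5a among others, was called for SB and TGFβ1 in CFs. It was at 10.10, 10.08 and 10.10 with DMSO, 9.57, 9.53 and 9.74 with SB and 10.93, 10.93 and 10.95 with TGFβ1, 3 groups without overlap. TGFβ1 raised it 1.79-fold (log2 fold change 0.84, SE 0.0542, adjusted p = 0.000112) and SB lowered it 1.40-fold (log2 fold change -0.48, SE 0.0542, adjusted p = 0.0149). In MEF 0TF it was at 11.95, 12.00 and 11.94 with DMSO, 11.75, 11.70 and 11.76 with SB and 11.35, 11.43 and 11.33 with TGFβ1. MEF HNGMT values were 11.48, 11.43 and 11.45 with DMSO, 11.20, 11.19 and 11.10 with SB and 11.41, 11.46 and 11.46 with TGFβ1. TGFβ1 lowered it in 0TF by 0.59 on the log2 scale, and in HNGMT the difference was -0.01. The fall in 0TF was short of the fold limit after centring on the median (-0.51) and without DMSO replicate 2 (-0.58), TGFβ1 replicate 1 (-0.58) or TGFβ1 replicate 3 (-0.57). Fzd1 fell with TGFβ1 in 0TF by 0.59, which was -0.51 after centring and -0.58 without TGFβ1 replicate 1 or 2, again short of the limit. Fzd3 was called only for the difference between cell types given below, and Fzd7, Fzd9 and Fzd10 in no comparison.

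Of the coreceptors, Lrp6 was called in 4 comparisons and Lrp5 in none. In 0TF Lrp6 was at 11.89, 11.86 and 11.86 with DMSO, 11.68, 11.74 and 11.69 with SB and 10.99, 11.00 and 10.98 with TGFβ1. It fell 1.84-fold with TGFβ1 (log2 fold change -0.88, SE 0.0415, adjusted p = 6.26e-12). In HNGMT it was at 11.02, 11.21 and 11.14 with DMSO, 11.02, 11.06 and 11.08 with SB and 10.90, 10.93 and 10.99 with TGFβ1. Those cultures lay below 0TF in DMSO (log2 fold change -0.75, SE 0.0415, adjusted p = 7.33e-11) and in SB (-0.65), and in TGFβ1 the difference was -0.05. Lrp5 moved by -0.48 with TGFβ1 in 0TF and -0.49 in HNGMT, both short of the fold limit. In CFs Lrp6 was at 10.57, 10.36 and 10.53 with DMSO, 10.40, 10.36 and 9.95 with SB and 10.46, 10.40 and 10.40 with TGFβ1.

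**Figure D2:**
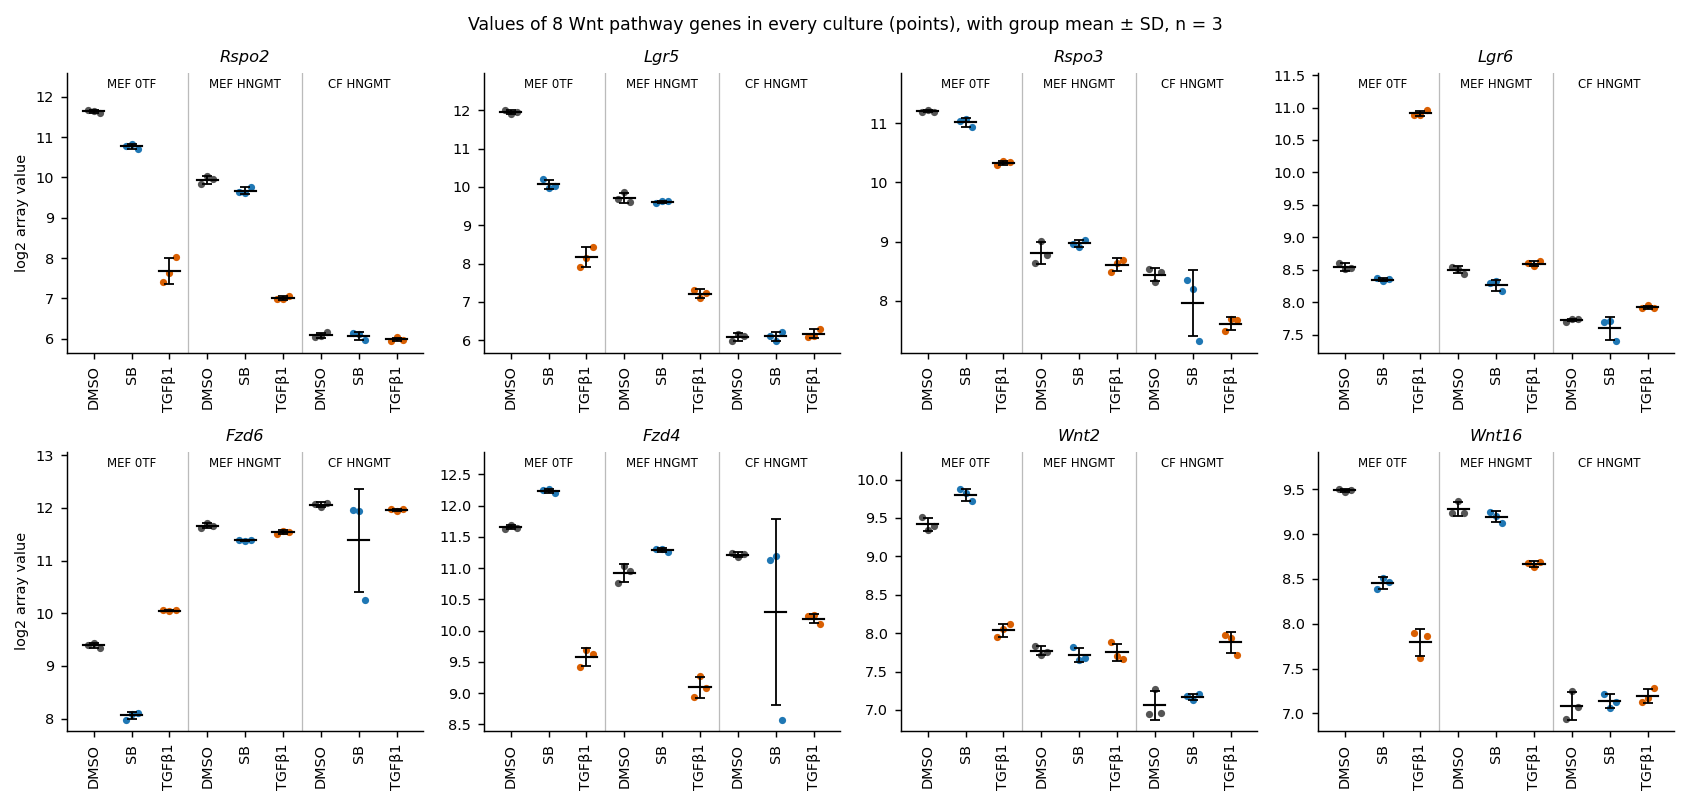
Log2 array values (vertical axes) of 8 members in every culture (points) of the 9 groups, with the group mean (bar) and SD (error bar), n = 3. Rspo2 and Lgr5 step down from DMSO to SB to TGFβ1 in MEF 0TF, Lgr6 is high in 1 group only (MEF 0TF with TGFβ1, 10.88 to 10.96), and the third CF culture with SB is the low point of Fzd4 and Fzd6.

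Among the R-spondin and Lgr genes, Rspo2 and Lgr5 had the largest changes of all 42 members in absolute size, followed by Fzd6. Rspo2, a secreted ligand of the Lgr receptors, was at 11.67, 11.65 and 11.61 in MEF 0TF with DMSO, 10.77, 10.84 and 10.70 with SB and 7.40, 7.62 and 8.03 with TGFβ1. It fell 1.83-fold with SB (log2 fold change -0.87, SE 0.106, adjusted p = 7.86e-06) and 15.5-fold with TGFβ1 (log2 fold change -3.96, SE 0.106, adjusted p = 3.01e-15). In MEF HNGMT it was at 9.83, 10.03 and 9.97 with DMSO, 9.65, 9.60 and 9.78 with SB and 6.98, 6.99 and 7.06 with TGFβ1. The fall with TGFβ1 was 7.62-fold there (log2 fold change -2.93, SE 0.106, adjusted p = 8.43e-13). All 3 HNGMT cultures with TGFβ1, and 2 of the 3 in 0TF, lay under the limit for dim genes in MEFs (7.75), so these folds rest on a dim level that can understate a fall. HNGMT lowered Rspo2 by 1.70 in DMSO (SE 0.106, adjusted p = 3.51e-10), by 1.09 in SB and by 0.67 in TGFβ1 on the log2 scale. The last of these was -0.50 without MEF 0TF TGFβ1 replicate 3, short of the fold limit. In CFs Rspo2 was dim, at 6.03 to 6.15 with DMSO, 5.95 to 6.14 with SB and 5.94 to 6.03 with TGFβ1.

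Lgr5, a receptor for R-spondins known as a marker of intestinal stem cells, had the same order of groups. In MEF 0TF it was at 12.00, 11.90 and 11.95 with DMSO, 10.20, 9.98 and 10.03 with SB and 7.91, 8.14 and 8.44 with TGFβ1, with no overlap. The fall was 3.69-fold with SB (log2 fold change -1.88, SE 0.1, adjusted p = 2.11e-10) and 13.8-fold with TGFβ1 (log2 fold change -3.79, SE 0.1, adjusted p = 2.53e-15). MEF HNGMT values were 9.68, 9.86 and 9.59 with DMSO, 9.59, 9.64 and 9.62 with SB and 7.32, 7.10 and 7.23 with TGFβ1. The DMSO and SB cultures overlapped and the TGFβ1 cultures were lower (log2 fold change -2.50, SE 0.1, adjusted p = 2.81e-12), all 3 of them under the limit for dim genes. HNGMT lowered Lgr5 4.72-fold in DMSO (log2 fold change -2.24, SE 0.1, adjusted p = 3.68e-12) and by 0.95 on the log2 scale in TGFβ1, and in SB the difference was -0.45. In CFs it was dim, at 5.97 to 6.17 with DMSO, 5.98 to 6.22 with SB and 6.09 to 6.30 with TGFβ1.

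Rspo3, another R-spondin, fell with HNGMT under every treatment and with TGFβ1 in 0TF. In 0TF it was at 11.19, 11.22 and 11.19 with DMSO, 11.04, 11.07 and 10.93 with SB and 10.29, 10.37 and 10.34 with TGFβ1. Under HNGMT it was at 8.64, 9.01 and 8.78 with DMSO, 8.96, 8.92 and 9.03 with SB and 8.49, 8.64 and 8.70 with TGFβ1, all below every 0TF culture. HNGMT lowered it 5.25-fold in DMSO (log2 fold change -2.39, SE 0.0714, adjusted p = 1.96e-14), 4.12-fold in SB and 3.29-fold in TGFβ1. TGFβ1 lowered it in 0TF (log2 fold change -0.87, SE 0.0714, adjusted p = 1.22e-08), and in HNGMT the difference was -0.20. In CFs it was at 8.54, 8.32 and 8.48 with DMSO, 8.35, 8.20 and 7.32 with SB and 7.49, 7.69 and 7.67 with TGFβ1. Rspo1 moved by -0.54 with HNGMT in DMSO, short of the fold limit, and Rspo4 was dim in both cell types.

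The other Lgr receptors moved in opposite directions with TGFβ1 in MEF 0TF. Lgr6 was at 8.61, 8.50 and 8.52 with DMSO, 8.37, 8.32 and 8.35 with SB and 10.88, 10.89 and 10.96 with TGFβ1. TGFβ1 raised it 5.16-fold (log2 fold change 2.37, SE 0.0452, adjusted p = 3.67e-17), the largest rise of a member with an added agent. With HNGMT it was at 8.54, 8.51 and 8.44 with DMSO, 8.29, 8.32 and 8.17 with SB and 8.60, 8.55 and 8.64 with TGFβ1, and the TGFβ1 difference was 0.10. In TGFβ1 the HNGMT cultures were therefore lower than the 0TF cultures (log2 fold change -2.32, SE 0.0452, adjusted p = 5.37e-17). In CFs Lgr6 was at 7.70, 7.74 and 7.74 with DMSO, 7.69, 7.71 and 7.40 with SB and 7.92, 7.95 and 7.90 with TGFβ1, with no call.

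Lgr4, the broadly expressed member of the family, was at 11.56, 11.70 and 11.72 in 0TF with DMSO, 11.63, 11.62 and 11.59 with SB and 10.77, 10.67 and 10.78 with TGFβ1. It fell 1.89-fold with TGFβ1 (log2 fold change -0.92, SE 0.0727, adjusted p = 7.64e-09). In HNGMT it was at 10.47, 10.75 and 10.55 with DMSO, 10.37, 10.47 and 10.31 with SB and 10.24, 10.51 and 10.36 with TGFβ1, and TGFβ1 made a difference of -0.22. HNGMT lowered it in DMSO (log2 fold change -1.07, SE 0.0727, adjusted p = 1.11e-09) and in SB (-1.23), and in TGFβ1 the difference was -0.37. The CF values were 9.23, 8.83 and 9.09 with DMSO, 8.93, 9.03 and 8.24 with SB and 8.93, 8.83 and 8.85 with TGFβ1.

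None of the feedback and responsive genes was called in any comparison. Axin2 was dim in both cell types, between 7.43 and 7.85 in all 18 MEF arrays and between 6.85 and 7.23 in all 9 CF arrays. Its largest difference was -0.18 with TGFβ1 in MEF 0TF (SE 0.0646, adjusted p = 0.0319). Lef1, a nuclear partner of β-catenin, was also dim, and went from 7.12, 7.13 and 6.88 with DMSO to 7.60, 7.56 and 7.57 with TGFβ1 in 0TF. Those cultures did not overlap (log2 fold change 0.54, SE 0.0702, adjusted p = 4.22e-06), and the difference was short of the fold limit. Rnf43 was dim and differed by 0.40 at most, with HNGMT in TGFβ1. Znrf3 was not dim and ranged from 8.73 to 9.04 in 0TF with DMSO and from 9.43 to 9.55 in HNGMT with DMSO (log2 fold change 0.57, SE 0.0656, adjusted p = 1.08e-06), just short of the fold limit.

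Whether an agent acted differently with and without HNGMT was tested as the difference of the 2 effects in MEFs. For SB this difference was called higher for 5 members and lower for none, against 0.893% and 1.06% of all genes. The 5 were Lgr5, Fzd6, Wnt16, Fzd8 and Rspo2, which SB had lowered in 0TF, with log2 fold changes of -1.88, -1.33, -1.03, -0.78 and -0.87. In HNGMT the SB differences of these genes were -0.10, -0.28, -0.09, -0.17 and -0.27. For TGFβ1 the difference was called higher for 8 members and lower for 3, against 4.68% and 2.77% of all genes. All 8 were lowered by TGFβ1 in 0TF and had a smaller or no called change in HNGMT. They were Wnt2 (1.36), Lgr5 (1.29), Wnt16 (1.08), Rspo2 (1.03), Lgr4 (0.70), Lrp6 (0.70), Rspo3 (0.67) and Fzd2 (0.59). In MEF HNGMT, Wnt2 was at 7.72 to 7.83 with DMSO, at the limit for dim genes (7.75) before any fall, and Rspo2 and Lgr5 ended under it with TGFβ1, so for these 3 genes a smaller effect and a floor of the array signal cannot be told apart. The 3 that rose in 0TF and not past the limit in HNGMT were Lgr6 (log2 fold change -2.27, SE 0.0639, adjusted p = 4.2e-14), Wnt9a (-0.80) and Fzd6 (-0.79). In the fit of all 27 arrays, Fzd6 lost both of these calls, with an adjusted p of 0.118 for SB and 0.12 for TGFβ1. The values of Fzd8 for SB (0.56 without MEF 0TF DMSO replicate 1), of Rspo2 for SB (0.55 to 0.57 without MEF 0TF SB replicate 3, HNGMT DMSO replicate 1 or HNGMT SB replicate 3) and of Fzd2 for TGFβ1 (0.57 to 0.58 without any 1 of 7 of its 12 cultures) then fell short of the limit. Fzd4, at -2.07 in 0TF and -1.82 in HNGMT, was not called as different (adjusted p = 0.112).

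**Figure D3:**
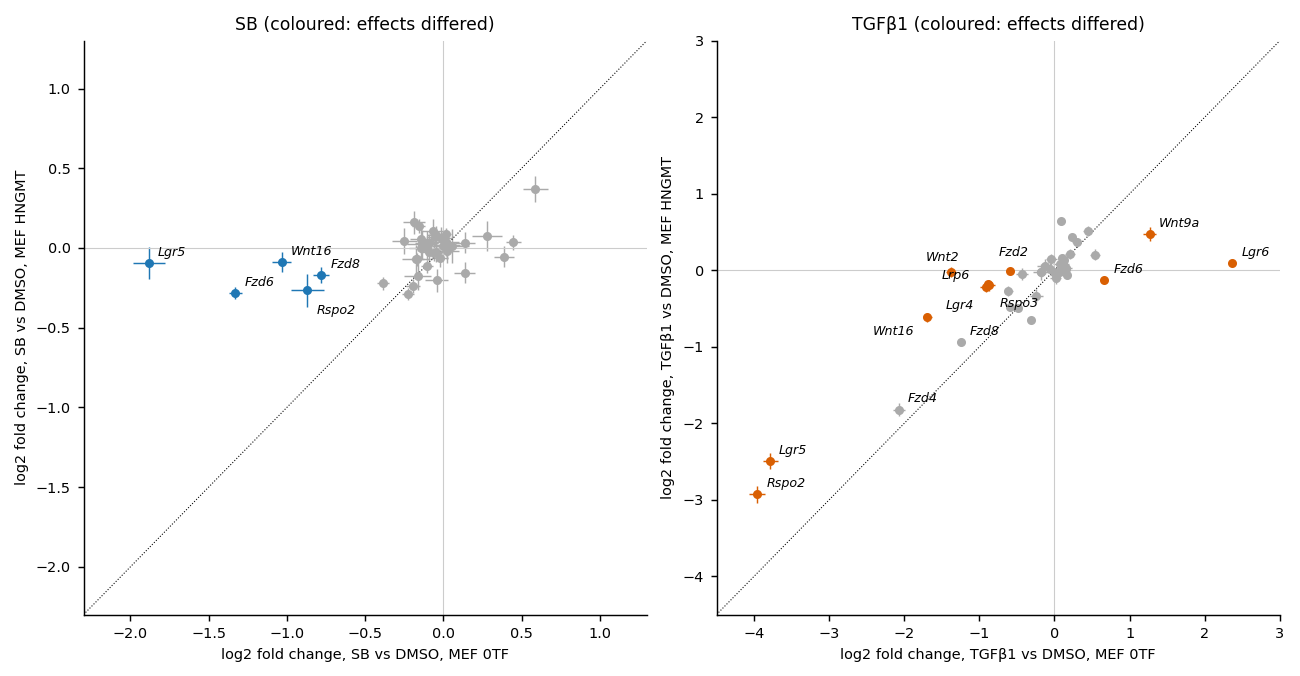
Log2 fold change against DMSO in MEF HNGMT (vertical axis) and in MEF 0TF (horizontal axis) for SB (left) and TGFβ1 (right), 1 point a member with its SE in both directions, n = 3 cultures a group. Coloured points are members whose 2 effects were called different, and the dotted line marks equal effects. With SB the 5 coloured genes lie far left of the line and near 0 on the vertical axis, and with TGFβ1 Lgr5, Rspo2 and Fzd4 lie low on both axes while Lgr6 is at 2.37 on the horizontal and 0.10 on the vertical axis.

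In CFs the comparisons rest on a group with 1 divergent culture. SB replicate 3 was at 8.58 for Fzd4 and 10.25 for Fzd6, against 11.13 and 11.19 and 11.97 and 11.94 in the other 2 SB cultures. The mean of the 14 endothelial markers was 9.36 in that culture, and it spanned 9.36 to 10.74 over the SB group and 9.86 to 9.90 with TGFβ1, against 10.46 to 10.50 with DMSO. In the same culture the mean of the epicardial and mesothelial markers was 9.12, against 8.07 and 8.06 in the other 2, and that of the fibroblast markers 11.02, against 10.56 and 10.53. The cardiomyocyte markers were lower there, at 8.75 against 9.41 and 9.45, as were the smooth muscle markers, at 10.04 against 10.44 and 10.52. No endothelial marker was called with SB and 1 of 14 (lower) with TGFβ1, where the list's median was -0.63, beside -0.0044 over all genes. With TGFβ1, 11 of these 14 did not overlap between the groups, against 6556 of all 19938 genes. The smooth muscle mean was 11.32 to 11.35 with TGFβ1, against 10.74 to 10.77 with DMSO. Of its 7 markers 1 was called (higher), and none of the 7 overlapped. Over all genes TGFβ1 called 3.11% higher and 2.2% lower. Whether these cell types have a part in the CF values was not tested. In bulk RNA, fewer cells of a type and less RNA per cell cannot be told apart.

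With all 9 arrays, TGFβ1 raised 3 members in CFs (Fzd2, Wnt2 and Wnt11) and lowered none, against 3.11% and 2.2% of all genes. SB lowered 1 (Fzd2) and raised none, against 0.196% and 0.0451%. Before adjustment, limma's p was under 0.05 for 0 members above and 3 below DMSO with SB, and for 7 above and 5 below with TGFβ1. Of all 19938 genes, 477 were above and 763 below in that way with SB, and 2075 above and 2254 below with TGFβ1. Without SB replicate 3, which enters the TGFβ1 comparison only through the common estimate of the spread, TGFβ1 raised 6 and lowered 4, against 4.97% and 5.8% of all genes. The added rises were Wnt9a (log2 fold change 0.64, SE 0.0857, adjusted p = 0.0011), Wnt5a (0.56) and Wnt10b (0.38). The falls were Fzd4 (log2 fold change -1.03, SE 0.046, adjusted p = 3.99e-06), Rspo3 (-0.83), Fzd8 (-0.45) and Fzd5 (-0.34). For SB, Fzd2 was the single call without that culture too (log2 fold change -0.55, SE 0.0348, adjusted p = 0.000271), against 0.858% of genes higher and 1.03% lower. With all 9 arrays the SB call of Fzd2 was lost when any 1 of CF DMSO replicates 1, 2 and 3 or SB replicate 1 was left out, at adjusted p = 0.0732, 0.0869, 0.118 and 0.0716. It was also lost with the replicate number as a block (adjusted p = 0.0675) and at a fold of 1.5. The plot of the CF cultures shows the divergent culture beside the others.

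**Figure D4:**
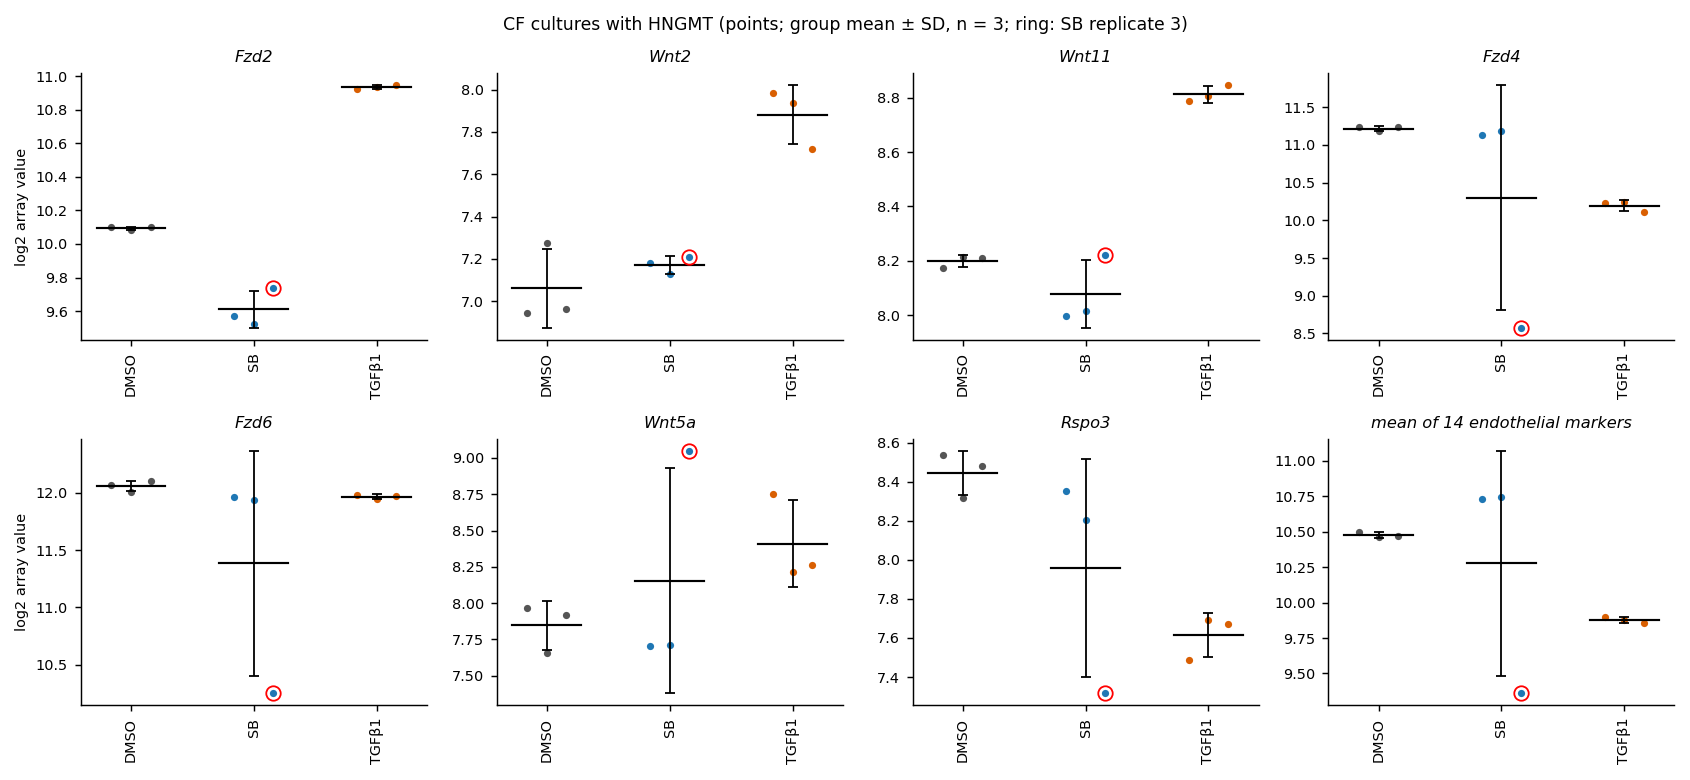
Log2 array values (vertical axes) of 7 members and the mean of 14 endothelial markers in the 9 CF HNGMT cultures (points), by treatment, with group mean (bar) and SD (error bar), n = 3. The ring marks SB replicate 3, which is low for Fzd4, Fzd6, Rspo3 and the endothelial mean and high for Wnt5a, while for Fzd2 the 3 treatments do not overlap.

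The effect of TGFβ1 in HNGMT cells, given at the same dose to both cell types, was compared between CFs and MEFs. The difference was called higher in CFs for 5 members and lower for 1, against 2.68% and 1.7% of all genes. Fzd2 (log2 fold change 0.85, SE 0.0602, adjusted p = 1.02e-09) and Wnt2 (0.84) rose in CFs, and their differences in MEF HNGMT were -0.01 and -0.02, the latter from a DMSO level at the limit for dim genes. Rspo2 (2.83), Lgr5 (2.58) and Wnt16 (0.72) fell in MEF HNGMT and were dim in CFs with every treatment. Fzd3 (-0.62) was at 8.10, 8.21 and 8.20 with DMSO and 8.60, 8.72 and 8.73 with TGFβ1 in MEF HNGMT, and at 7.82, 7.68 and 7.96 and 7.73, 7.68 and 7.70 in CFs, and without CF DMSO replicate 3 its difference was -0.56, short of the fold limit. Wnt11, at 0.61 in CFs and 0.64 in MEF HNGMT, was not called as different (adjusted p = 0.902). Fzd4, at -1.03 in CFs and -1.82 in MEF HNGMT, was not called either. Its difference of 0.80 was larger than those of Wnt16 and Fzd3. The spread of this fit takes in the divergent CF culture, which was low for Fzd4.

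Genes further along the pathway were followed as lists. Of 30 signal transducers, TGFβ1 in MEF 0TF lowered 4 and raised none, among them the nuclear factors Tcf7l1 (-1.48) and Tcf7l2 (-0.73) and the corepressor Tle2 (-0.77). The list's median was 0.02, beside 0.05 over all genes, of which 4.21% rose and 6.19% fell. In MEF HNGMT TGFβ1 called none of the 30. HNGMT in DMSO raised none and lowered 3 (all genes 4.56% and 4.51%), Tle1 (-1.24), Tcf7l1 (-0.74) and Tle2 (-0.79). In SB it raised 1 and lowered 3 of the 30 (all genes 5.04% and 4.81%), and in TGFβ1 it raised 4 and lowered 1 (all genes 6.37% and 3.88%), with Tle3 at 0.78, Tcf7l1 at 0.79, Ctnnbip1, an inhibitor of β-catenin, at 0.67 and Tle1 at -1.18. Of 7 genes for Wnt secretion and other Wnt receptors, TGFβ1 in 0TF raised Ptk7 (0.72) and lowered Ror1 (-1.45), and HNGMT in DMSO lowered Ror1 (-1.09). Of 8 core genes of planar polarity, Prickle2 was the single call with TGFβ1 in 0TF (-0.90). SB called none of these 3 lists in either MEF condition.

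Of 14 genes known as Wnt targets, TGFβ1 in 0TF raised 3 and lowered 1, against 4.21% and 6.19% of all genes, and in HNGMT it called none. Ccn4 (0.71), Cd44 (0.75) and Nkd2 (0.72) rose and Nkd1 (-0.77), a feedback inhibitor, fell. SB in 0TF lowered Ccn4 (-1.25) and raised Apcdd1 (0.89), an inhibitor at the membrane. In MEF HNGMT, SB lowered 1 of the 14 targets and raised none, against 0.431% and 0.391% of all genes. HNGMT in DMSO raised Bambi (0.95) and Nkd2 (0.64) and lowered Apcdd1 (-1.13), against 4.56% and 4.51% of all genes. In SB, HNGMT raised 4 and lowered 1 of the 14 targets, against 5.04% and 4.81%. In TGFβ1 it raised 2 and lowered 3, against 6.37% and 3.88%. In CFs TGFβ1 raised Ccn4 (0.87) and lowered Nkd1 (-0.59), Bambi (-0.39) and Tnfrsf19 (-0.37), against 3.11% and 2.2% of all genes. Of 14 secreted antagonists, TGFβ1 in 0TF raised 1 and lowered 4, with Sfrp2 at -4.64 and Sfrp1 at -1.98, and in HNGMT it lowered 4, with Sfrp2 at -1.64, against 2.23% of all genes higher and 3.54% lower. HNGMT in DMSO raised 1 antagonist and lowered 5, against 4.56% and 4.51% of all genes. In SB it raised 2 and lowered 4 antagonists, against 5.04% and 4.81%. In TGFβ1 it raised 3 and lowered 3, against 6.37% and 3.88%. With SB, 2 antagonists rose and none fell in MEF HNGMT, against 0.391% and 0.431% of all genes. In MEF 0TF none rose and 1 fell with SB, against 1.26% and 1.13%.

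Markers of other cell types moved in the same comparisons. With SB in MEF 0TF all 9 adipocyte markers rose, against 1.26% of all genes higher and 1.13% lower. The mean over these markers was 8.24 to 8.26 with DMSO and 11.07 to 11.18 with SB, while Adipoq, Car3, Cidec and Retn were dim with DMSO. Of the smooth muscle markers 2 of 7 fell, and no other marker list had more than 1 call in either direction. In MEF HNGMT with SB 2 of the 9 adipocyte markers rose, and the mean was 8.25 to 8.38. In the same comparison 5 of 10 cardiomyocyte markers rose and none fell (mean 9.50 to 9.60 with DMSO and 9.96 to 10.36 with SB). Of these 10, Myh7 and Myl2 were dim with SB. No other marker list had more than 1 call there, against 0.391% of all genes higher and 0.431% lower. With HNGMT in DMSO 7 of 10 cardiomyocyte markers rose (mean 7.57 to 7.68 in 0TF and 9.50 to 9.60 in HNGMT, with Myh6, Myh7, Myl2 and Pln still dim). In that comparison 5 of 7 smooth muscle markers rose and 5 of 12 fibroblast markers fell. Also, 3 of 7 epicardial and mesothelial markers rose and 2 of 9 adipocyte markers fell. No other marker list had more than 1 call, against 4.56% of all genes higher and 4.51% lower. With TGFβ1 in 0TF 5 of 7 smooth muscle markers rose and 1 fell (mean 9.73 to 9.80 with DMSO and 10.58 to 10.73 with TGFβ1). In the same cells 4 of 12 fibroblast markers fell (mean 12.76 to 12.80 and 12.36 to 12.42), as did 2 of 14 endothelial and 2 of 9 adipocyte markers. No other marker list had more than 1 call in either direction, against 4.21% of all genes higher and 6.19% lower. With TGFβ1 in HNGMT 5 of 12 fibroblast markers fell (mean 12.32 to 12.34 with DMSO and 11.78 to 11.85 with TGFβ1). Of the cardiomyocyte markers 4 of 10 fell (mean 9.50 to 9.60 and 9.23 to 9.28). Of the epithelial markers 3 of 6 rose (mean 7.82 to 7.94 and 8.21 to 8.23), while Epcam, Krt5, Krt14 and Trp63 were dim with TGFβ1. In the same comparison 3 of 9 adipocyte markers fell and 2 of 7 epicardial and mesothelial markers rose. Of 7 smooth muscle markers 2 rose and 1 fell. No other marker list had more than 1 call in either direction, against 2.23% of all genes higher and 3.54% lower. The part of these cell types in the changes of the Wnt pathway genes was not tested.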

How the data were processed

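RNA of 27 cultures was hybridised to microarrays of the type Affymetrix Mouse Gene 1.0 ST, 1 array a culture. The deposited values are on a log2 scale; per the labels the authors made them with MAS5, the study's methods name a commercial analysis package, and the settings of the normalization are not given in the sources used here. The labels call the samples of a group independent replicates. Of 35556 probe sets, 21789 carried a single gene symbol in the platform's annotation and gave 19938 genes, 999 of them with more than 1 probe set, where the one with the highest mean was taken. MEF (18) and CF (9) arrays were fitted separately with limma 3.58.1 in R 4.3.3, with a coefficient for each group, moderated tests and two-sided p-values adjusted by Benjamini-Hochberg over all 19938 genes. The difference in TGFβ1 effect between CFs and MEFs was fitted on all 27 arrays. Fold limits (1.5 in MEFs, 1.25 in CFs) and the 5% false discovery rate follow the study's methods. Errors are SEs of the fit or SDs over 3 cultures and the number of arrays limits the precision.

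Members, pathway lists and markers were chosen with earlier results of these data known. Values in every culture are printed for the called members whose groups did not overlap, at most 16, in order of their largest change, and for pathway lists up to 4 genes of lowest p in a comparison are named. Over all genes, the deviations of CF cultures with DMSO and with TGFβ1 that share a replicate number correlated at 0.117 to 0.65, so these numbers count as pairs in that comparison. The SEs and p-values given for TGFβ1 in CFs come from the fit without these pairs. A replicate block was run only as an alternative. Alternatives were a fit of all arrays, a replicate block, quantile normalization, median centring, no dim genes, other fold limits, a variance trend with robust settings, the mean of a gene's probe sets and leaving out each array. The scripts were tested on simulated data. Promoter sequences are RefSeq's for GRCm38.p6.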

Additional observations from a re-analysis of the deposited data

Results flagged for a closer look

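The results given here are those in which the effect of an agent differed between 2 kinds of cells by limma's test of the difference itself, as log2 differences with adjusted p under 0.05 and at least 1.5-fold. Values above 0 mean that the effect was more positive in MEF HNGMT than in MEF 0TF, or in CF HNGMT than in MEF HNGMT.

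For SB in MEF HNGMT against MEF 0TF, the difference was 1.79 for Lgr5, 1.05 for Fzd6, 0.95 for Wnt16, 0.61 for Fzd8 and 0.60 for Rspo2. All 5 fell with SB in the 3 cultures of 0TF.

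For TGFβ1 in MEF HNGMT against MEF 0TF, the receptors and coreceptors Fzd2, Fzd6 and Lrp6 differed by 0.59, -0.79 and 0.70. The Lgr receptors Lgr4, Lgr5 and Lgr6 differed by 0.70, 1.29 and -2.27, and the R-spondins Rspo2 and Rspo3 by 1.03 and 0.67. The ligands Wnt2, Wnt9a and Wnt16 differed by 1.36, -0.80 and 1.08. In MEF HNGMT, Wnt2 was at the limit for dim genes with DMSO, and Rspo2 and Lgr5 were under it with TGFβ1.

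For TGFβ1 in CF HNGMT against MEF HNGMT, the difference was 0.85 for Fzd2, 0.84 for Wnt2 and -0.62 for Fzd3. It was 2.58 for Lgr5, 2.83 for Rspo2 and 0.72 for Wnt16, 3 genes that were dim in CFs.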

How the results depend on the processing

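None of the 83 called changes of single members changed direction under the alternatives run. Of these, 5 of the 77 that could be refitted lost their call in the fit of all 27 arrays, 5 after median centring, 1 after quantile normalization, 1 with the replicate block, 1 of 4 in CFs at a fold of 1.5, and 11 when some 1 array was left out; none did with a variance trend or without dim genes. Without a fold limit the counts of called members were 5 (SB in MEF HNGMT), 14 (SB in 0TF), 22 (TGFβ1 in HNGMT), 27 (TGFβ1 in 0TF), 21, 22 and 23 (HNGMT against 0TF in DMSO, SB and TGFβ1), 9 and 19 (differences of the SB and TGFβ1 effects in MEFs) and 10 (difference between CFs and MEFs). Over all 19938 genes these calls were 665 higher and 806 lower (SB in MEF HNGMT) and 1737 and 1569 (SB in 0TF). For TGFβ1 they were 4290 and 2852 in HNGMT and 5488 and 3862 in 0TF. For HNGMT against 0TF they were 4301 and 3765 in DMSO, 4330 and 4010 in SB and 4078 and 4704 in TGFβ1. The differences of effects gave 824 and 857 (SB) and 3068 and 3180 (TGFβ1) in MEFs, and 1338 and 1839 between CFs and MEFs. In CFs the count for SB was 0 at a fold of 1.5 and 0 with the replicate block, against 1 (Fzd2, adjusted p = 0.0675 with the block), and 0 to 1 over the arrays left out. The count for TGFβ1 in CFs was 8 in the fit of all 27 arrays, 3 to 10 over the arrays left out and 10 without CF SB replicate 3, an alternative chosen after seeing the data, against 3. The cause was not tested.

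The replicate block moved no other count of members: it gave 0, 6, 7 and 15 for SB in HNGMT, SB in 0TF, TGFβ1 in HNGMT and TGFβ1 in 0TF, 10, 10 and 9 for HNGMT against 0TF, 5, 11 and 6 for the differences of effects and 3 for TGFβ1 in CFs. In MEFs the correlation of deviations ran from -0.45 to 0.59 over 45 pairs of cultures and was over 0.1 in 9. Within MEF HNGMT it was 0.59, 0.52 and -0.01 for replicates 1, 2 and 3 between DMSO and TGFβ1. Between DMSO and SB it was 0.46, 0.03 and 0.33 there, and between TGFβ1 and SB 0.26, 0.18 and -0.02. None of the 15 pairs of MEF groups was over 0.1 for all 3 replicates, so the numbers were not counted as pairs in MEFs. The mean of all probe sets concerned only Wnt4 among the members. Precision is limited by 3 arrays a group, and for dim genes such as Axin2, Lef1 and Rnf43 by signal near the background.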
